A study of Mus musculus with 16 samples.

Results

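The 7 genes described here encode chemokines, chemokine receptors and cytokines of the TNF family that build lymphoid tissue: Cxcl13, Ccl19, Cxcr5, Ccr7, Ltb, Lta and Tnfsf13b. They were taken by symbol from the platform annotation, with 1 probe set per gene, and are 7 of the 19938 genes measured in this series. All 7 symbols were found. The arrays measured total RNA of whole lungs from C57BL/6 mice, 10 to 12 weeks of age and kept free of specific pathogens, that had been given crystalline silica (CS, a mineral dust that inflames the lung) or phosphate-buffered saline (PBS) through the trachea. The mice carried or lacked BLT1, the high-affinity receptor for leukotriene B4.

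There were 8 groups on 16 arrays. The day 2 groups were BLT1+/+ or BLT1-/-. The day 60 groups were BLT1+/+KRasLA1 or BLT1-/-KRasLA1. Every day 60 group, controls included, carried KRasLA1, a latent oncogenic allele that spontaneous recombination activates in scattered cells and that gives lung tumors, and no day 2 group carried it. Day and KRasLA1 can therefore not be told apart. Each CS group held 3 lungs, called biological replicates in the labels without animal numbers, so a p-value here covers no more than the spread of these samples, and some of that spread may be technical. Each PBS group was 1 array of RNA pooled from 3 mice, so the controls have no replicates of their own. Levels are log2 expression values, on which a difference of 1 is a doubling. Every p-value comes from limma, adjusted by the Benjamini-Hochberg method for all 19938 genes, and calls use 0.05. Errors are standard errors (SE) unless called SD. Each response averaged over the BLT1 genotypes rests on 6 lungs and both pools of that day.

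In lymphoid tissue, and in the B cell and T cell aggregates that form in chronically inflamed lungs, stromal cells secrete CXCL13 and CCL19. CXCL13 draws in B cells and follicular helper T cells through CXCR5, and CCL19 draws in T cells and mature dendritic cells through CCR7. Lymphocytes carry lymphotoxin, a heterotrimer of LTα and LTβ, which binds the LTβ receptor on stromal cells. That receptor acts through the noncanonical NF-kB pathway and induces these chemokines, while BAFF, the product of Tnfsf13b, keeps B cells alive.

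Across the series as a whole, the surfactant gene Sftpc, a defining marker of the labelled tissue, lay between 14.25 and 14.47 on all arrays. Ltb4r1, the gene of BLT1, lay between 7.22 and 7.63 on all arrays and differed between BLT1-/- and BLT1+/+ CS lungs by -0.19 ± 0.08 (day 2, adjusted p = 0.522) or -0.08 ± 0.08 (day 60, 0.967). The sources used here do not place its probe set relative to the deletion, and it cannot serve as a check of genotype. Eif2s3y, a Y-linked gene, reached 10.09 in replicate 2 of the BLT1+/+KRasLA1 CS lungs, at 9.68 and 9.04 in the day 60 PBS pools, and between 4.27 and 4.74 on the other 13 arrays. That lung thus stood apart from the rest of its group in sex, and the results that rest on it are given without it where a call was lost. Leaving it out does not balance sex, because both day 60 pools held male RNA and the remaining day 60 CS lungs did not. Every day 60 silica response, and its comparison with day 2, therefore also sets unlike mixtures of sex against each other. The part of sex in them was not tested.

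RefSeq promoter windows were available for 5 of the 7 genes, as 6 windows of 250 bases that end at a transcription start. The windows of Cxcl13, Ccl19 and Ltb are shown because the chemokine pair and the lymphotoxin moved in opposite directions at day 2, while all 3 windows hold a short form of the kappa B motif that NF-kB binds, which is 3 G, then 5 bases of any kind, then 2 C. Each runs 5′ to 3′ on the gene's strand in build GRCm38.p6, and capitals mark matches on either strand. They are chr5:95956689-95956938 (plus strand) for Cxcl13, chr4:42756366-42756615 (minus strand) for Ccl19 and chr17:35194257-35194506 (plus strand) for Ltb.
Cxcl13: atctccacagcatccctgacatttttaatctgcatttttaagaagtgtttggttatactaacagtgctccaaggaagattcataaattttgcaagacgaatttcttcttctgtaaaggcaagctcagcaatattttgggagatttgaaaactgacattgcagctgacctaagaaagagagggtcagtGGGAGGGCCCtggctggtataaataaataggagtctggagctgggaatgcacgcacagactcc
Ccl19: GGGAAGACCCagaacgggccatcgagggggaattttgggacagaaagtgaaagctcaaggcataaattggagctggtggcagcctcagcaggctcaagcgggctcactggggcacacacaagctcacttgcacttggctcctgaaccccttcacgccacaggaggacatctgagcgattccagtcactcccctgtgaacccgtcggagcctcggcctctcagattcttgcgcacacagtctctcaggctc
Ltb: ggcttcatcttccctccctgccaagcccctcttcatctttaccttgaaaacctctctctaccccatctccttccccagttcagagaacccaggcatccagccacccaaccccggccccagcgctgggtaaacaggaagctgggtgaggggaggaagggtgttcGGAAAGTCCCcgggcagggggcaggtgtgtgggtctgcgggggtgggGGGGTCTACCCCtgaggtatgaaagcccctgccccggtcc
The short form is common and was found in 45.8% of the 32851 promoter windows of this length, so a match here is no more than a description. The match lies at position -63 from the start in Cxcl13 and at -250 in Ccl19. In Ltb it lies at -87 and, as overlapping matches, from -40 to -38. The window of Lta, not shown, also holds overlapping matches, at -76 and -75, although Lta passed in neither mean silica response. The windows of Tnfsf13b hold none.

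Cxcl13, the B cell attractant, had the widest range of the 7 genes, 15.5-fold from its lowest to its highest array. At day 2 the BLT1+/+ CS lungs read 11.04, 11.60 and 12.50 against 9.19 in their PBS pool. The BLT1-/- CS lungs read 11.21, 11.30 and 11.81 against 8.55 in theirs. All 6 CS lungs lay above both pools, and the lungs of the genotypes overlapped. Averaged over the BLT1 genotypes, Cxcl13 rose 6.52-fold (2.71 ± 0.27 on the log2 scale, 95% interval 2.12 to 3.29, adjusted p = 0.000117), the 14th largest rise of all genes at day 2. At day 60 the BLT1+/+KRasLA1 CS lungs read 11.22, 11.20 and 11.00 against 9.81, and the BLT1-/-KRasLA1 CS lungs 11.09, 11.47 and 11.48 against 10.48. The CS lungs again lay above both pools in 6 of 6, and Cxcl13 rose 2.15-fold (1.10 ± 0.27, adjusted p = 0.0358). This call was lost without BLT1+/+KRasLA1 CS replicate 2, the lung that stood apart in sex (1.09, adjusted p = 0.0645). It was also lost without replicate 1 of that group (1.08, 0.0717) and without BLT1-/-KRasLA1 CS replicate 2 (1.07, 0.0731) or 3 (1.07, 0.0739). It passed without either day 60 pool.

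Ccl19, the ligand of CCR7, rose less and on both days. At day 2 its levels were 9.96, 10.04 and 9.90 in BLT1+/+ CS lungs against 9.26 in the pool. In BLT1-/- CS lungs they were 9.99, 9.76 and 9.57 against 9.30. No CS lung reached down to the pools, and the mean response was 0.59 ± 0.18 (adjusted p = 0.0460). At day 60 the levels were 10.15, 10.40 and 9.75 in BLT1+/+KRasLA1 CS lungs against 9.22, and 9.90, 10.60 and 10.40 in BLT1-/-KRasLA1 CS lungs against 9.38. Ccl19 rose 1.87-fold there (0.90 ± 0.18, adjusted p = 0.0105), higher in 6 of 6 lungs. The 4 pools lay within 9.22 to 9.38 on both days, while the highest CS lung was at 10.60. The day 2 call was lost in 12 of 19 alternatives, among them the removal of BLT1+/+ CS replicate 1 (0.59, adjusted p = 0.0515), 2 (0.57, 0.0874) or 3 (0.60, 0.0654) and of BLT1-/- CS replicate 1 (0.53, 0.0734) or 2 (0.59, 0.0687). The annotation names 5 probe sets for Ccl19, of which a pair holds identical values, and the mouse genome carries near-identical copies of this gene. Which copy was measured is therefore uncertain. The 5 probe sets gave day 2 responses of 0.47 to 0.62 and day 60 responses of 0.83 to 0.92, and a fit with another of them lost the day 2 call (0.47, adjusted p = 0.0953).

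The receptors went the other way at day 2. Cxcr5, which mature B cells carry, read 7.62, 6.98 and 6.78 in BLT1+/+ CS lungs against 8.52 in the pool at that day. It read 7.22, 7.02 and 6.79 in BLT1-/- CS lungs against 7.91. Each of the 6 CS lungs lay below both pools, and Cxcr5 fell 2.21-fold (-1.14 ± 0.23, adjusted p = 0.00685), the 20th largest fall of all genes at day 2. In whole lung RNA, fewer cells of a type and less RNA per cell cannot be told apart. At day 60 Cxcr5 read 7.75, 7.83 and 7.88 in BLT1+/+KRasLA1 CS lungs against 7.65. It read 7.60, 8.08 and 8.62 in BLT1-/-KRasLA1 CS lungs against 7.21. The lowest CS lung lay below the higher pool, so CS and PBS overlapped, and the mean response of 0.53 ± 0.23 did not pass (adjusted p = 0.319), although each lung lay above the pool of its own genotype.

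Ccr7, carried by naive T cells and by dendritic cells that migrate to lymph nodes, fell at day 2 and rose at day 60. At day 2 its levels were 9.78, 9.42 and 9.51 in BLT1+/+ CS lungs against 10.17 in the pool, and 9.55, 9.51 and 9.64 in BLT1-/- CS lungs against 10.14. Ccr7 fell by 0.58 ± 0.11 (adjusted p = 0.00350), with all 6 CS lungs below both pools. At day 60 its levels were 10.22, 10.18 and 9.96 in BLT1+/+KRasLA1 CS lungs against 9.63. In BLT1-/-KRasLA1 CS lungs they were 10.15, 10.15 and 10.43 against 9.56. All 6 CS lungs lay above both pools there, and Ccr7 rose 1.51-fold (0.59 ± 0.11, adjusted p = 0.00619). The day 60 pools lay within the range of the day 2 CS lungs, and the day 2 pools within the range of the day 60 CS lungs. Of the gaps between neighbouring groups in the order of mean levels, the one of 0.50 between BLT1+/+KRasLA1 CS lungs and their pool exceeded 2 SE for Ccr7, and for the other 6 genes none did.

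Ltb encodes the membrane-bound β chain of lymphotoxin. At day 2 it read 8.82, 8.18 and 8.31 in BLT1+/+ CS lungs against 9.07 in the pool, and 8.73, 8.24 and 8.08 in BLT1-/- CS lungs against 9.30. The CS lungs lay below both pools in 6 of 6, and Ltb fell 1.73-fold (-0.79 ± 0.18, adjusted p = 0.0122). At day 60 it read 9.05, 9.22 and 9.16 in BLT1+/+KRasLA1 CS lungs against 8.67. In BLT1-/-KRasLA1 CS lungs it read 9.15, 9.32 and 9.63 against 8.70. All of these CS lungs lay above both pools, but the response of 0.57 ± 0.18 did not pass (adjusted p = 0.118).

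Lta encodes the α chain, which is needed for every form of lymphotoxin. At day 2 its levels were 7.24, 6.77 and 7.21 in BLT1+/+ CS lungs against 7.06, and 6.88, 7.004 and 7.18 in BLT1-/- CS lungs against 7.46. At day 60 they were 7.39, 7.35 and 7.11 in BLT1+/+KRasLA1 CS lungs against 7.18, and 7.61, 7.45 and 7.60 in BLT1-/-KRasLA1 CS lungs against 7.42. CS lungs and pools overlapped on both days. Neither the day 2 response of -0.21 ± 0.13 (95% interval -0.49 to 0.07, adjusted p = 0.371, lower in 4 of 6 lungs) nor the day 60 response of 0.11 ± 0.13 (-0.17 to 0.40, adjusted p = 0.80) passed. Ltb and Lta lie close together on chromosome 17, on either side of Tnf.

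Tnfsf13b encodes BAFF, a B cell survival factor made largely by myeloid and stromal cells. It had the narrowest range of the 7 genes, 1.64-fold. At day 2 it read 10.92, 10.94 and 10.66 in BLT1+/+ CS lungs against 10.60, and 10.66, 10.74 and 10.31 in BLT1-/- CS lungs against 10.39. At day 60 it read 10.72, 10.52 and 10.64 in BLT1+/+KRasLA1 CS lungs against 10.41, and 10.73, 10.71 and 10.71 in BLT1-/-KRasLA1 CS lungs against 10.23. The day 2 groups overlapped, with a response of 0.21 ± 0.11 (adjusted p = 0.245). The day 60 CS lungs lay above both pools, with a response of 0.35 ± 0.11 that did not pass either (adjusted p = 0.0967).

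**Figure D1:**
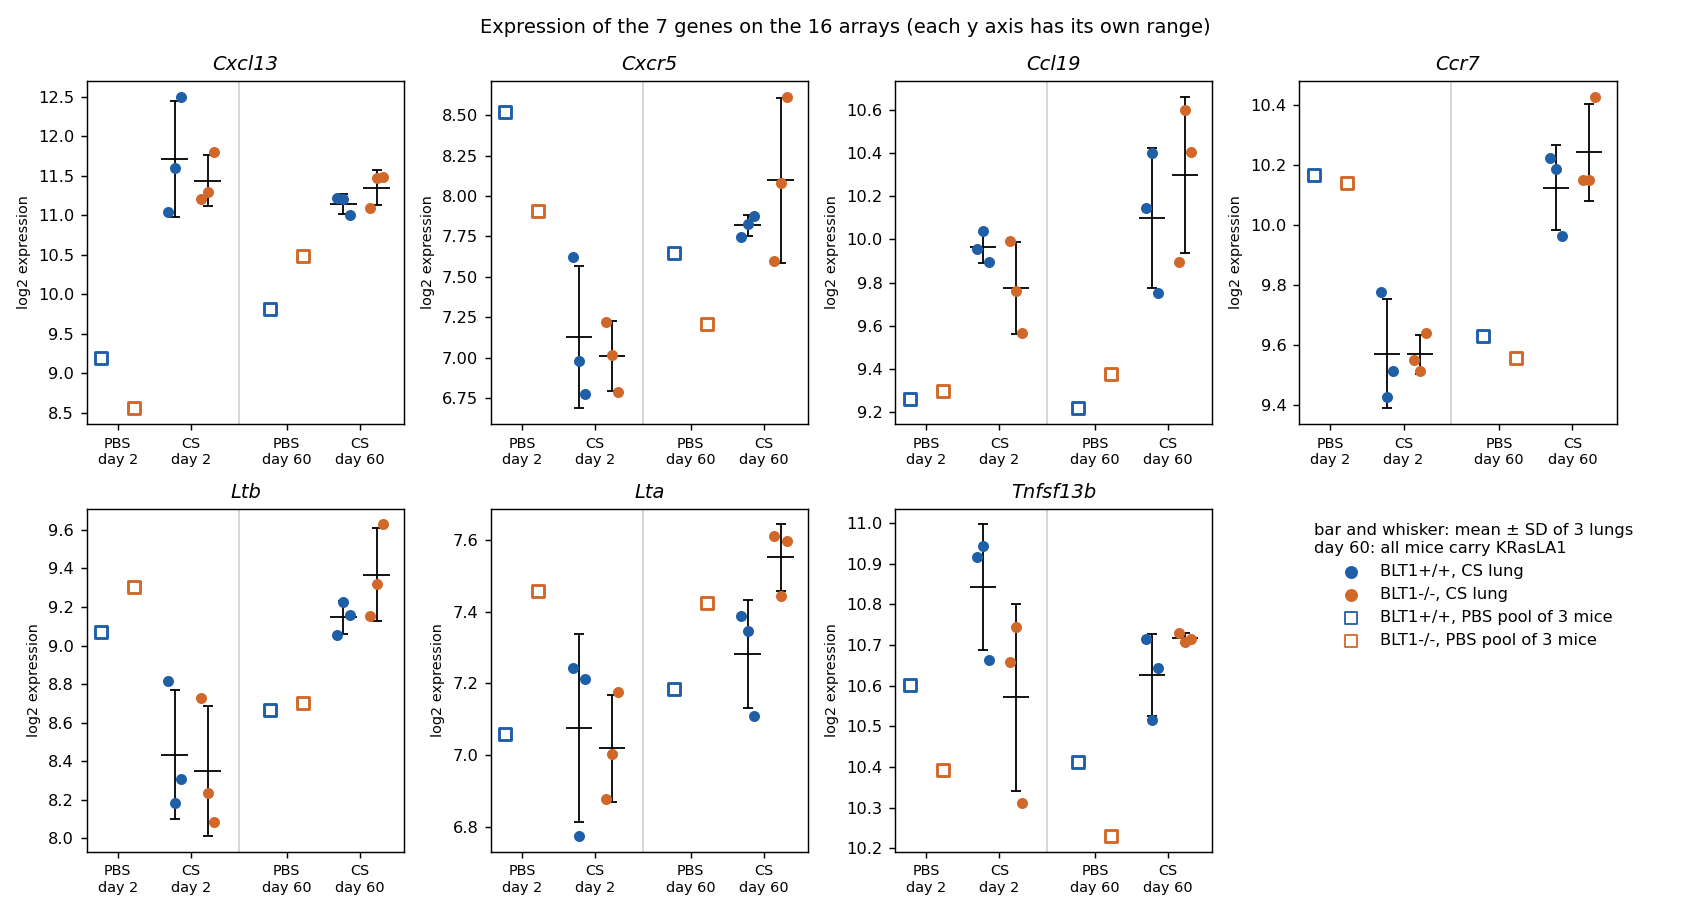
Log2 expression of the 7 genes (y axes, each with its own range) on 16 arrays, by treatment and day (x axis): circles are CS lungs with their mean and SD of 3, squares are PBS pools of 3 mice, and colors are BLT1 genotypes. At day 2 the CS lungs of Cxcl13 and Ccl19 lie above both pools and those of Cxcr5, Ccr7 and Ltb below; at day 60 the CS lungs of Cxcl13, Ccl19, Ccr7, Ltb and Tnfsf13b lie above both pools.

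At day 2, then, 2 of the 7 genes rose (Cxcl13 and Ccl19) and 3 fell (Cxcr5, Ccr7 and Ltb), where 8.03% of all genes were higher and 4.37% lower at this threshold. At day 60, 3 rose (Cxcl13, Ccl19 and Ccr7) and none fell, where 3.35% of all genes were higher and 0.677% lower. The median response of the 7 genes was -0.21 at day 2 and 0.57 at day 60, beside -0.02 and -0.03 over all genes. Fits without a pool used the remaining arrays of that day alone and took the response as equal in the genotypes. Their estimates are those of the genotype that kept its pool. A lost call there can thus come from fewer arrays as well as from the missing pool. A fit that drops the BLT1+/+ pool of the day kept Cxcl13 alone at day 2, with Cxcr5 at -0.90 (adjusted p = 0.120), Ccl19 at 0.48 (0.134), Ccr7 at -0.57 (0.0755) and Ltb at -0.95 (0.0957). A fit that drops the BLT1-/- pool kept Cxcl13 alone as well, with Cxcr5 at -1.39 (0.0794), Ccl19 at 0.70 (0.108), Ccr7 at -0.60 (0.134) and Ltb at -0.63 (0.421). At day 60, Cxcl13 alone was kept too, with Ccl19 at 0.92 (0.213) and Ccr7 at 0.69 (0.0675) without the BLT1+/+ pool, and with Ccl19 at 0.88 (0.257) and Ccr7 at 0.50 (0.196) without the BLT1-/- pool. A fit with the replicate number of the day 2 lungs as a block added Tnfsf13b at day 2 (adjusted p = 0.0364), and Ltb (0.0135) and Tnfsf13b (0.00684) at day 60, for 6 genes at day 2 and 5 at day 60, where 16.4% and 5.37% of all genes were called in either direction. In that fit a pool is assumed to vary no more than the residual left after the block. No label pairs the lungs, and this block was chosen after seeing the data. The calls it adds, here and below, are therefore no independent support.

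**Figure D2:**
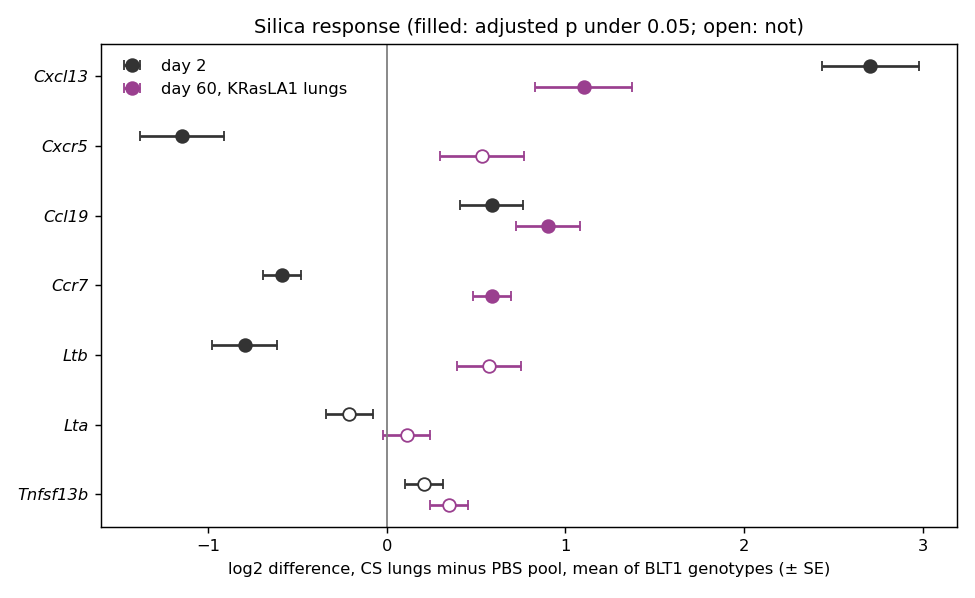
Log2 difference between CS lungs and PBS pools, averaged over the BLT1 genotypes (x axis, bars are SE), for the 7 genes at day 2 and in KRasLA1 lungs at day 60; filled points passed an adjusted p of 0.05 and open points did not. Cxcl13 and Ccl19 lie to the right of 0 on both days, while Cxcr5, Ccr7 and Ltb lie to the left at day 2 and to the right at day 60.

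The responses on the days were then set against each other. Ccr7 differed most clearly, with a day 60 response 1.17 ± 0.15 above that of day 2 (adjusted p = 0.00183). The difference was 1.37 ± 0.26 for Ltb (adjusted p = 0.0125) and 1.68 ± 0.33 for Cxcr5 (adjusted p = 0.0181). For these 3 genes every day 2 lung was below and every day 60 lung above the pool of its own genotype. Cxcl13 went the other way, with a response -1.60 ± 0.38 smaller at day 60 (adjusted p = 0.0461). The background was 1.7% of genes higher and 0.657% lower. Ccl19 (0.31 ± 0.25), Lta (0.32 ± 0.19) and Tnfsf13b (0.14 ± 0.15) did not pass (adjusted p from 0.495 to 0.811). The Cxcl13 difference lost its call in 13 of 22 alternatives, with an adjusted p between 0.0545 and 0.0761 when any of these CS lungs was left out: all 6 lungs of day 60, BLT1+/+ replicate 2, or BLT1-/- replicate 2 or 3 of day 2.

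The pools and the CS lungs each contributed to these differences. Between the day 60 and the day 2 pools Cxcl13 differed by 1.27 ± 0.33 (adjusted p = 0.139), Cxcr5 by -0.79 ± 0.29 (0.308), Ccr7 by -0.56 ± 0.13 (0.0936) and Ltb by -0.50 ± 0.22 (0.434). None of the 7 passed in this comparison, in which 0.396% of all genes were called in either direction and 4 of the 7 had an unadjusted p under 0.05. With the day 2 replicate block Cxcl13 passed (adjusted p = 0.0142, where 0.828% of all genes did). Male RNA was present in the day 60 pools and not in those of day 2. A comparison of CS lungs between the days, chosen after seeing the data, uses no pool: Cxcr5 (0.89 ± 0.17, adjusted p = 0.00138), Ccr7 (0.61 ± 0.08, 6.55e-05), Ltb (0.86 ± 0.13, 0.00027) and Lta (0.37 ± 0.09, 0.00941) were higher at day 60. Of all genes, 12.2% were higher and 13.8% lower there. In these CS lungs Ccr7 read 9.42 to 9.78 at day 2 and 9.96 to 10.43 at day 60. Ltb read 8.08 to 8.82 and 9.05 to 9.63. Cxcl13 was at -0.33 ± 0.19 (adjusted p = 0.243, and 0.0291 with the day 2 block, where 29.3% of all genes passed), Ccl19 at 0.33 ± 0.13 (0.0703) and Tnfsf13b at -0.04 ± 0.07 (0.794). Ccl19 passed when BLT1-/- CS day 2 replicate 1 (0.38, adjusted p = 0.0491), BLT1-/-KRasLA1 CS replicate 1 (0.43, 0.0113) or BLT1+/+KRasLA1 CS replicate 3 (0.42, 0.0198) was left out. Cxcl13 did so without BLT1+/+ CS day 2 replicate 1 (-0.50, 0.0278).

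The responses were next taken within each genotype, CS lungs against the matching pool. Each of these sets 3 lungs against 1 array, whose spread is borrowed from the CS lungs. In BLT1+/+ lungs at day 2, Cxcl13 rose by 2.53 ± 0.38 (adjusted p = 0.00812), where 0.853% of genes were higher. Cxcr5 (-1.39 ± 0.33, adjusted p = 0.0638) and Ccr7 (-0.60 ± 0.15, 0.0776) did not pass, but did so with the day 2 replicate block (0.0218 and 0.0439, where 3.76% of all genes passed) and without BLT1+/+ CS replicate 1 (-1.64, 0.0111 and -0.70, 0.0169). In BLT1-/- lungs at day 2, Cxcl13 rose by 2.89 ± 0.38 (adjusted p = 0.00212), where 5.19% of genes were higher. Ccr7 (-0.57 ± 0.15, adjusted p = 0.0392) and Ltb (-0.95 ± 0.26, 0.0423) fell there, where 1.4% were lower. The Ccr7 call was lost without any 1 of the 3 lungs (adjusted p from 0.0584 to 0.0838), and the Ltb call without replicate 2 (0.0888) or 3 (0.104). Counting all alternatives, the Ccr7 call was lost in 6 of 14 and the Ltb call in 7 of 14. In BLT1+/+KRasLA1 lungs at day 60 none of the 7 was called, where 0.762% of genes were called in either direction and 3 of the 7 had an unadjusted p under 0.05 by limma. Cxcl13 was at 1.33 ± 0.38 (adjusted p = 0.164, and 0.0160 with the day 2 block, where 0.898% of all genes passed) and Ccl19 at 0.88 ± 0.25 (0.162, and 0.0355 without replicate 3). In BLT1-/-KRasLA1 lungs Ccr7 rose by 0.69 ± 0.15 (adjusted p = 0.0453), where 1.1% of genes were higher, and lost the call without replicate 2 (0.0804) or 3 (0.139). Over all alternatives this call was lost in 9 of 14, other normalizations among them. Ccl19 was at 0.92 ± 0.25 (adjusted p = 0.119, and 0.0192 without replicate 1) and Tnfsf13b at 0.49 ± 0.15 (0.181, and 0.0236 with the day 2 block, where 1.62% of all genes passed).

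Whether BLT1 alters these genes was asked among the CS lungs, 3 against 3 on each day. At day 2 none of the 7 differed past the threshold between BLT1-/- and BLT1+/+ lungs, where 0.0201% of all genes did, and 1 had an unadjusted p under 0.05 by limma. Tnfsf13b had the smallest p, at -0.27 ± 0.11 (adjusted p = 0.467, limma). The interval for Cxcl13 ran from -0.86 to 0.31 around -0.28, and that for Ccr7 from -0.23 to 0.23 around -0.00293. At day 60 none passed either, where 0.0401% did, and 0 had an unadjusted p under 0.05. The BLT1-/-KRasLA1 lungs had the higher mean for each of the 7 genes, by 0.09 to 0.28. In the same comparison the median difference was 0.29 over the T cell markers (0 of 12 passed, 7 with an unadjusted p under 0.05) and 0.28 over the B cell markers (0 of 14, 3 unadjusted), and their part was not tested. Lta had the smallest p at day 60, at 0.27 ± 0.13 (95% interval -0.01 to 0.55, adjusted p = 0.967, limma). The BLT1 by silica interaction called 0 of the 7 on either day, 0 of them at an unadjusted p under 0.05, and 0% of all genes by limma. Its intervals ran from -0.80 to 1.53 for Cxcl13 at day 2 and from -0.29 to 1.73 for Cxcr5 at day 60, so they include differences of these sizes between the genotypes.

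The other genes of the pathway were followed through 4 lists. Beside their counts, 8.03% of all genes rose and 4.37% fell at day 2, and 3.35% rose and 0.677% fell at day 60. Of 13 further lymphoid chemokine and receptor genes measured, 5 rose and 2 fell at day 2, and 6 rose and none fell at day 60. Ch25h, the enzyme that starts the synthesis of the B cell attractant 7α,25-dihydroxycholesterol, rose by 1.93 ± 0.15 at day 2 and by 1.65 ± 0.15 at day 60. Gpr183, the receptor for that oxysterol, fell by 0.45 at day 2 and rose by 0.59 at day 60. Ccr6, a receptor of B cells and Th17 cells, fell by 0.47 and rose by 0.80, while its ligand Ccl20 rose by 0.95 at day 2 and was at 0.71 at day 60 (adjusted p = 0.0527). Ccl22, which attracts T cells through CCR4, rose by 0.63 and by 1.18, while Ccr4 was at -0.01 at day 2 (adjusted p = 0.967) and rose by 0.91 at day 60. At day 2 Ch25h and Gpr183 took opposite directions, though the oxysterol itself was not measured. Ligand and receptor did so in the CCL20 pair, as in the pairs of Cxcl13 with Cxcr5 and Ccl19 with Ccr7. The pair of Ccl22 with Ccr4 did not. Ccl21a, Ccl21b and Ccl21c, on the same list, had only probe sets shared with other genes and were not analysed.

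Of 18 further genes of TNF superfamily ligands and receptors, 1 rose and 1 fell at day 2, and 8 rose and none fell at day 60. The day 2 counts lie near the shares over all genes, 8.03% higher and 4.37% lower. At day 60, 3.35% were higher. Tnf rose on both days (1.42 ± 0.28 and 1.06 ± 0.28). Its day 2 mean was 9.73 in BLT1+/+ CS lungs against 7.53 in the pool, and 8.82 in BLT1-/- CS lungs against 8.18. The BLT1 by silica interaction at day 2 called 0 of the 18 genes, and 2 had an unadjusted p under 0.05 by limma. Tnfrsf13c, the BAFF receptor of B cells, fell by 0.46 at day 2 and rose by 0.47 at day 60. Tnfrsf13b, the TACI receptor for BAFF and APRIL, was at -0.30 at day 2 (adjusted p = 0.0568) and rose by 0.47 at day 60. Tnfrsf17, the plasma cell receptor BCMA, rose by 0.58 at day 60, as did Tnfrsf4 (OX40, 0.63) and Tnfsf8 (the CD30 ligand, 0.61). Ltbr, the receptor of lymphotoxin, passed on neither day and lay between 9.45 and 9.88 on all arrays. Of 7 genes of the noncanonical NF-kB pathway, 2 rose and 1 fell at day 2, and 3 rose at day 60. Nfkb2 (0.54 and 0.63) and Relb (0.39 and 0.46), the transcription factor pair of this pathway, rose on both days. Birc3, a ubiquitin ligase that holds the pathway in check, rose by 0.55 at day 60, and Traf1 fell by 0.41 at day 2.

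Of 16 genes of lymphoid tissue inducer and organizer cells, 4 rose at day 2 and 2 at day 60, where 8.03% and 3.35% of all genes rose. Il6 rose by 3.73 ± 0.27 and by 1.41 ± 0.27. Icam1 (0.46) and Vcam1 (0.23), adhesion molecules that organizer stroma displays, and Pdpn (0.47), which fibroblastic reticular cells carry, rose at day 2. None of these is particular to such cells, and whole lung RNA does not show which cells the transcripts came from. Pdpn and Icam1 stood at percentiles 98.1 and 98.6 of the gene means. Madcam1, Glycam1 and Chst4, on the same list, passed on neither day. Il7r, carried by T cells and lymphoid tissue inducer cells, was at -0.25 at day 2 (adjusted p = 0.510) and rose by 1.40 ± 0.20 at day 60. The median over the lists at day 2 and day 60 was 0.09 and 0.59 for the chemokines, 0.02 and 0.21 for the TNF superfamily, 0.12 and 0.19 for the NF-kB pathway and -0.05 and 0.02 for inducer and organizer genes.

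**Figure D3:**
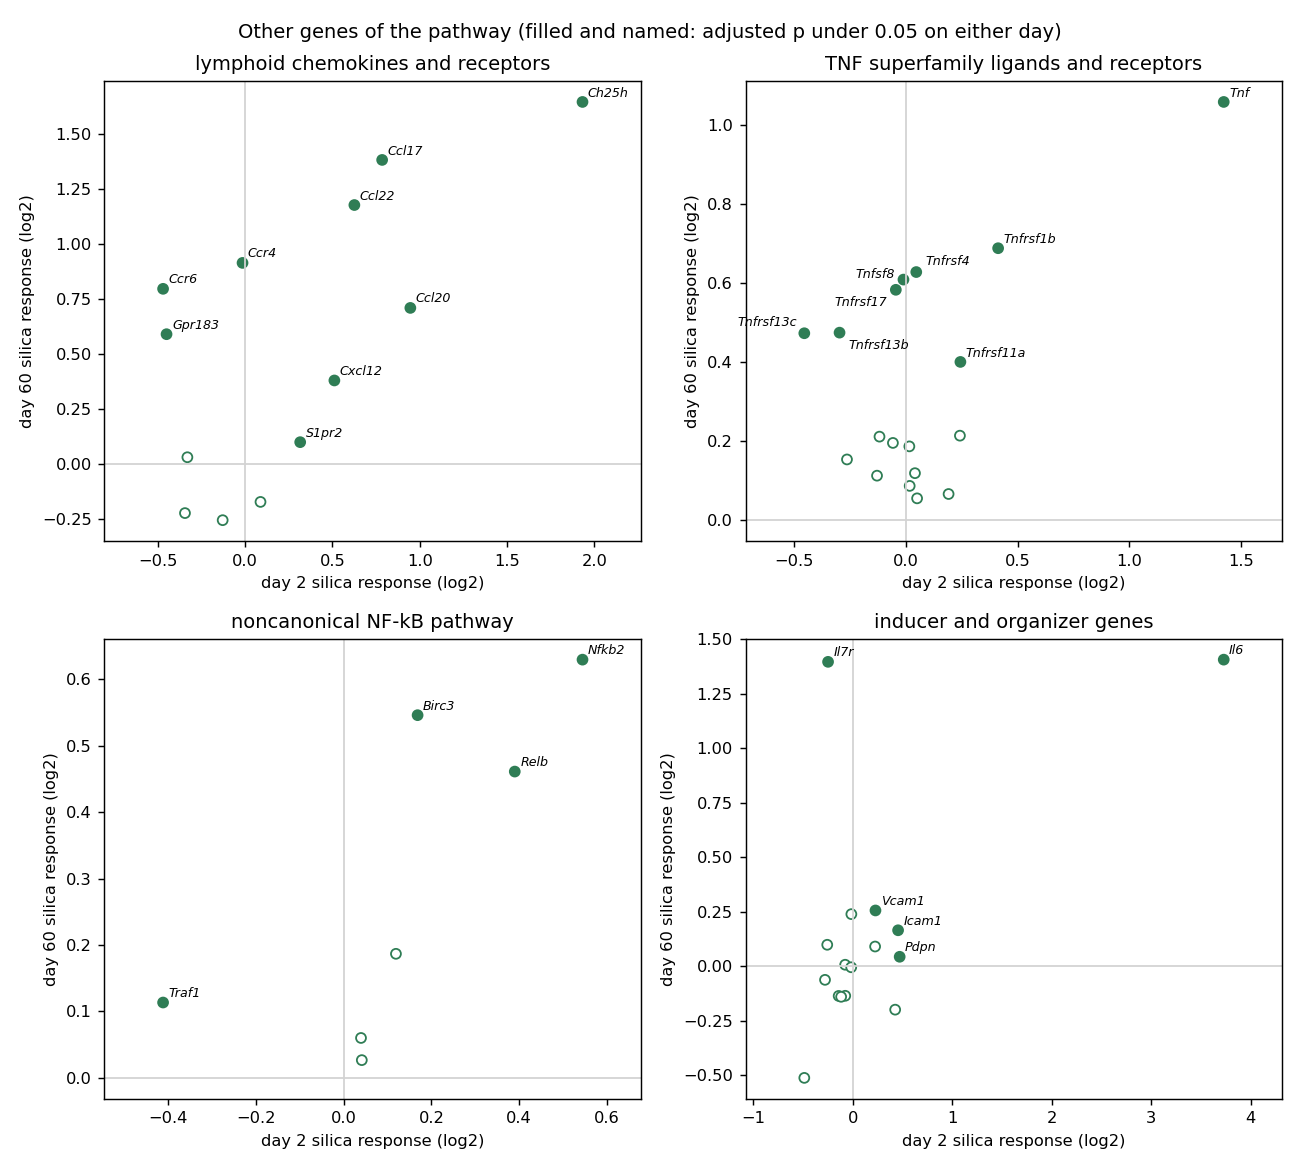
Mean silica response at day 2 (x axis, log2) and at day 60 (y axis, log2) for the measured genes of the 4 pathway lists, one point per gene; filled and named points passed an adjusted p of 0.05 on either day. Ccr6, Gpr183 and Tnfrsf13c lie left of 0 at day 2 and above 0 at day 60, while Ch25h, Tnf, Nfkb2 and Relb lie above 0 on both axes.

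B and T cell markers moved in the directions of Cxcr5 and Ccr7, and dendritic cell markers did so in part. For the counts here, 8.03% of all genes rose and 4.37% fell at day 2, and 3.35% rose and 0.677% fell at day 60. B cell markers fell in 14 of 14 measured genes at day 2 (median -1.09), with Ly6d at -1.45, Cd79b at -1.12 and Ms4a1 at -1.55, and rose in 4 of 14 at day 60 (median 0.57), with Pou2af1 at 0.81. Their mean level lay between 8.36 and 9.10 in day 2 CS lungs against 9.73 and 9.82 in the pools, and between 9.63 and 10.18 in day 60 CS lungs against 9.26 and 9.36. T cell markers fell in 9 of 12 at day 2 and rose in 8 of 12 at day 60 (medians -0.49 and 0.57), with Cd3g at -0.90 and 1.03. Dendritic cell markers fell in 5 of 9 and rose in 2 at day 2, and rose in 5 and fell in 1 at day 60. The 2 that rose at day 2, when Ccr7 fell, were Fscn1 and Ccl22. Fscn1 had a day 2 mean of 10.00 in BLT1+/+ CS lungs against 9.13 in the pool, and 10.44 against 9.54 in BLT1-/-. Plasma cell markers rose in 2 of 8 at day 2 (Sdc1 and Xbp1) and in 5 of 8 at day 60, with list medians of -0.05 and 0.61. At day 2 Jchain, Mzb1 and Irf4 had lower means in the CS lungs of each genotype than in its pool. Prdm1, Derl3 and Tnfrsf17 differed in direction between the genotypes. Jchain, the joining chain of secreted antibodies, was at 2.82 at day 60.

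Over the 16 arrays, Pearson's r with the mean B cell marker level was 0.96 for Ltb, 0.92 for Cxcr5, 0.90 for Ccr7, 0.66 for Lta, 0.22 for Ccl19, -0.05 for Tnfsf13b and -0.44 for Cxcl13. With T cell markers it was 0.94 for Ltb and for Ccr7 and 0.83 for Cxcr5. Lta had an r of 0.74 with T cell markers and of 0.72 with thymus markers. These arrays share their groups, so the values describe levels that go up and down together and carry no test. The part of B and T cell content in the results for Cxcr5, Ccr7 and Ltb was not tested. Cxcr5, Ccr7 and Ltb also went together as pairs, with r of 0.87 for Cxcr5 and Ccr7, 0.90 for Cxcr5 and Ltb and 0.90 for Ccr7 and Ltb. Taken as deviations from the group means of the 12 CS lungs, these were 0.61, 0.86 and 0.54. The chemokines Cxcl13 and Ccl19 had an r of 0.66 over the arrays and of 0.05 within CS groups.

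**Figure D4:**
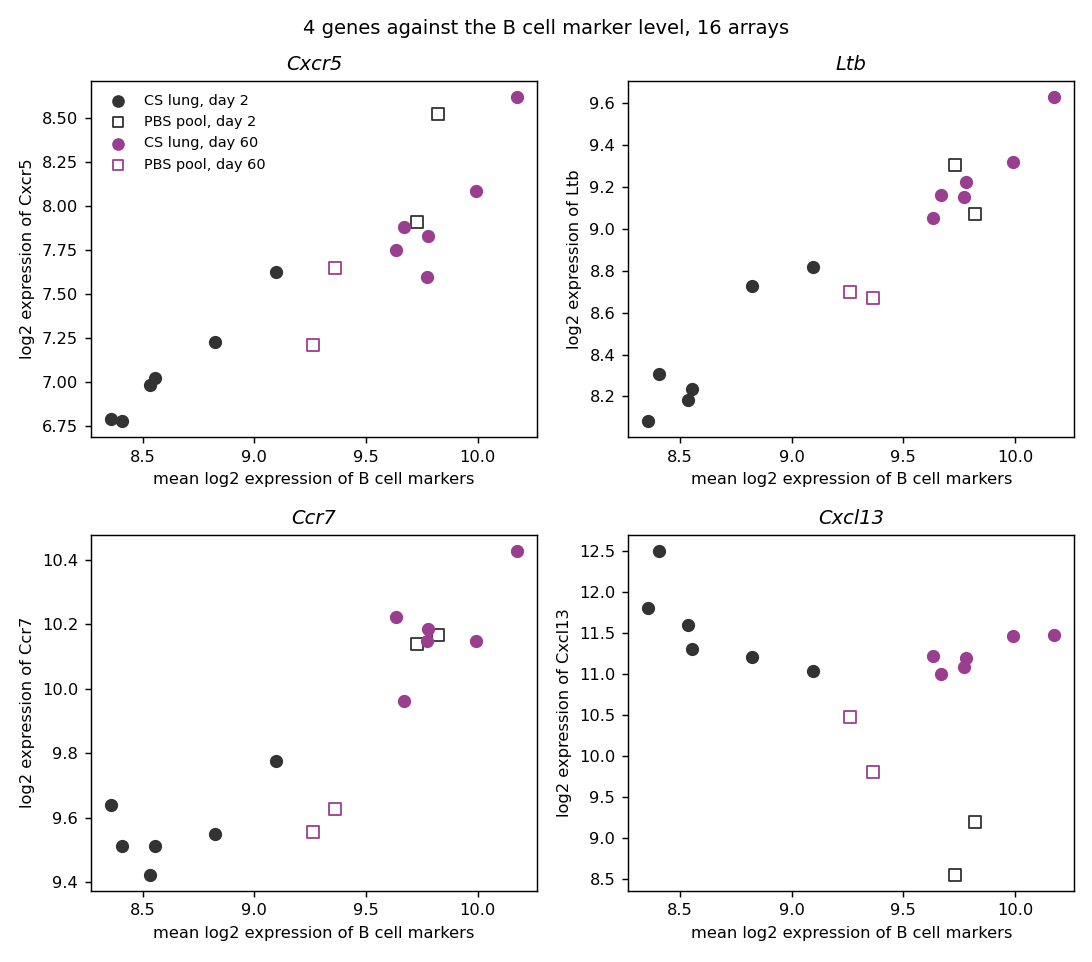
Log2 expression of Cxcr5, Ltb, Ccr7 and Cxcl13 (y axes) against the mean log2 expression of 14 B cell markers (x axis) on 16 arrays; circles are CS lungs, squares are PBS pools, and colors are days. Cxcr5, Ltb and Ccr7 rise along the B cell axis (r of 0.92, 0.96 and 0.90), while Cxcl13 lies above the pools in the CS lungs of both days, those of day 2 having the lowest B cell marker levels.

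Other cell types were checked beside the chemokines, where 8.03% of all genes rose and 4.37% fell at day 2. At day 60 these shares were 3.35% and 0.677%. Macrophage and monocyte markers rose in 4 of 11 and fell in 1 at day 2 and rose in 8 of 11 at day 60, and their mean level had an r of 0.84 with Ccl19. Markers of follicular dendritic cells and stroma rose in 3 of 8 at day 2, namely Il33 (1.23), Clu (0.49) and Pdpn, none particular to these cells. They rose in 2 of 8 at day 60, among them Fcer2a (1.35), which B cells also carry. Madcam1 and Coch, on the same list, passed on neither day. Lymphatic and high endothelial markers passed in 0 of 8 on both days by limma, where 2 at day 2 and 3 at day 60 had an unadjusted p under 0.05. Thymus markers fell in 1 of 9 at day 2 and passed in 0 of 9 at day 60, 0 of them with an unadjusted p under 0.05. Their mean level was 7.63 in BLT1-/-KRasLA1 CS replicate 1, the lung with the highest Lta (7.61), and between 7.15 and 7.22 in the other 5 day 60 CS lungs. Without that lung, Lta was still higher in CS lungs at day 60 than at day 2 (0.35, adjusted p = 0.0178), and the BLT1 difference at day 60 was 0.24. Heart muscle markers fell in 5 of 8 at day 2 (median -0.89) and in 0 of 8 at day 60 (median -0.61, 5 with an unadjusted p under 0.05). Their mean level lay between 9.76 and 10.57 in day 2 CS lungs against 10.92 and 11.01 in the pools, and had an r of -0.85 with Cxcl13 and -0.71 with Ccl19 over the 16 arrays. The source of the heart muscle transcripts is not shown by these data. The part of these cell types and of heart muscle transcripts in the chemokine results was not tested. RMA values have no zero, so no marker can be called absent.

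For each of the 7 genes, the 3 genes with the highest r over the 16 arrays were listed, predicted genes and receptor segments left out. Cxcl13 was most like Cd302 (0.95), Hmox1 (0.94), the heme oxygenase of stressed macrophages, and Il1rn (0.94), the interleukin-1 receptor antagonist. Cxcr5 was most like Clec2i (0.96), the Fc receptor homolog Fcrl1 of B cells (0.96) and Gimap3 (0.95), and Ltb like Dtx1 (0.98), Cd37 (0.96) and the IgM receptor Fcmr (0.96), of which Cd37 and Fcmr are on the B cell list. Ccr7 was most like Man1a (0.95), P2ry10 (0.95) and the T cell receptor component Cd3g (0.94). Ccl19 was most like Zc3h12a (0.93), an RNase that curbs inflammatory transcripts, Csf2rb (0.90) and Cd177 (0.90). Lta followed Pacsin1 (0.90), Rab37 (0.88) and Il9r (0.86), and Tnfsf13b had the loosest matches, Skap2 (0.80), Vcam1 (0.80) and Creb5 (0.79). As deviations within the 12 CS lungs, the closest were Ptgs2 for Cxcl13 (0.97), Cd96 for Cxcr5 (0.97), Tnip1 for Ccl19 (0.98), Ccdc80 for Ccr7 (0.95), Cd79a for Ltb (0.95), Olfr963 for Lta (0.95) and Rnf167 for Tnfsf13b (0.98).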

How the data were processed

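Total RNA of mouse lungs (RNeasy Mini kit, 250 ng per sample, per the labels) was labelled with biotin for Affymetrix whole-transcript arrays. The authors deposited log2 expression values per probe set, and the submitters' processing notes name RMA and Partek 6.6. Because RMA makes the arrays' distributions alike (array medians lay between 8.25 and 8.34), a change in total RNA would be hidden, and changes of dim genes come out too small.

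Of 35556 probe sets, 21789 carried 1 gene symbol in the platform annotation, 1621 several and 12146 none. Each of 19938 genes is represented by its brightest probe set, judged by the mean of 16 arrays. Of 160 genes on 14 lists, 145 were measured, 7 had only probe sets shared with other genes and 8 were not analysed here.

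In R 4.3.3, limma 3.58.1 fitted 8 group means (lmFit and eBayes, trend on), with 8 residual degrees of freedom, all from CS lungs, and 5.4 prior ones. The spread of a PBS pool was taken to equal that of a CS lung. There were 13 two-sided contrasts, 1 of them added after seeing the data. Precision is limited by the number of arrays. On simulated data for the mean day 2 response of 19938 genes, the fit called 98 of 100 genes changed by 1 on the log2 scale, 100 of 100 changed by 2, and 10 unchanged genes. The simulated arrays were independent, pools were given the spread of CS lungs, and no change below 1 was tried. The simulation therefore cannot check the assumption on the pools, the effect of linked replicates or the power for smaller responses. Levels of different probe sets were compared for no purpose but the choice of probe set and the filter on dim genes.

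The named genes are the 7 members, up to 4 genes per pathway list and up to 3 per marker list with the smallest p on each day, and the most similar genes. Genes named in the plot of pathway lists are all those that passed. The members and the lists were chosen with earlier results of these data known. Same-numbered day 2 CS lungs of the BLT1 genotypes deviated together (r of 0.43, 0.20 and 0.34 across genes for replicates 1, 2 and 3, each over 0.1). Blocks by replicate number were used in alternatives only. The main fit does not pair the lungs, and no label does. The alternatives were other normalizations, no variance trend, array weights, all probe sets, a filter on dim genes below the 25th percentile, the 8 arrays of a day, replicate blocks, exchanged pools, fits without a pool and leaving out each lung. Promoter sequences are from RefSeq, GRCm38.p6. No source used here names the array files' own build.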

Additional observations from a re-analysis of the deposited data

Results flagged for a closer look

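The responses of 4 of the 7 genes differed between day 2 and day 60 in a test of the difference itself. The day 60 response was higher than that of day 2 by 1.68 for Cxcr5 (adjusted p = 0.0181), by 1.17 for Ccr7 (adjusted p = 0.00183) and by 1.37 for Ltb (adjusted p = 0.0125), and in these 3 genes every lung of one day moved against every lung of the other. For Cxcl13 the difference was -1.60 (adjusted p = 0.0461), with CS lungs above their pools on both days. From day 2 to day 60 its CS lungs differed by -0.33 (adjusted p = 0.243, limma) and its unreplicated pools by 1.27 (0.139). The Cxcl13 call was lost in 13 of 22 alternatives. Day 60 lungs and pools all carried KRasLA1 and those of day 2 did not, so day and allele cannot be told apart. The day 60 pools also held male RNA, and those of day 2 did not. Beside these values, the mean level of B cell markers was lower in day 2 CS lungs and higher in day 60 CS lungs than in the pools of the same day, and its part in the result was not tested. No group held 4 or more samples, so none was examined for a single sample far from the others.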

How the results depend on the processing

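Over the 13 comparisons, values called in the original fit kept their call in 329 of 393 repeats under an alternative, lost it in 64 and reversed in 0; values not called gained a call in 45 of 1078 and differed in sign, uncalled, in 43. Cxcl13 at day 2 kept its call in 19 of 19 and Ccr7 and Ltb between the day responses in 22 of 22. The count of called genes at day 2 was 1 in fits without either pool in place of 5. At day 60 it was 1 without either pool and 5 with array weights, with the 8 arrays of the day and with either replicate block, in place of 3. For BLT1+/+ at day 2 it was 3 with either replicate block in place of 1. For BLT1-/- at day 2 it was 1 with no variance trend, all probe sets or 8 arrays, in place of 3. For BLT1+/+KRasLA1 it was 3 with array weights and 1 with 8 arrays or either block, in place of 0. For BLT1-/-KRasLA1 it was 4 with array weights, 2 with either block, and 0 with quantile or cyclic loess normalization, no variance trend, all probe sets or exchanged pools, in place of 1. Between the day responses it was 2 with all probe sets, in place of 4. For the pools it was 2 with array weights and 1 with either block, in place of 0. Smaller moves included 6 at day 2 with either block in place of 5, 4 for BLT1-/- at day 2 with the block within both days in place of 3, and 6 with that block and 5 with the day 2 block or array weights for the CS lungs of the days in place of 4. The cause was not tested. Leaving out each lung in turn gave 4 to 5 at day 2, 2 to 3 at day 60, 1 to 3 for BLT1+/+ and 1 to 2 for BLT1-/- at day 2, 0 to 1 for BLT1+/+KRasLA1, 0 to 2 for BLT1-/-KRasLA1, 3 to 4 between the day responses, 4 to 5 for the CS lungs of the days and 0 for the BLT1 differences and the interactions; the comparison of pools holds no lung.

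The block confined to day 2 was chosen after seeing the data. At day 60 the same-numbered lungs had correlations of 0.09, 0.01 and 0.06 and share only a number. Not every sample there correlated best with its own number. The controls are single pools, day and KRasLA1 go together. Each CS group has 3 lungs. Lta lay below the filter on dim genes and has no value there, and depth has no equivalent on these arrays.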
